A study of Mus musculus with 18 samples.

Results

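The chemokine ligands were 35 genes, taken by name (the CC and CXC ligands, with Pf4 and Ppbp among the latter, Cx3cl1 and Xcl1) from a table of 49585 mouse genes. All 35 had a count in at least 1 of 18 libraries, so none was absent from the table. Chemokines are small secreted or membrane-anchored proteins that bind G protein-coupled receptors on leukocytes and steer their movement along gradients. Inflammatory members such as Ccl2 and Cxcl1 are made by macrophages, neutrophils and stromal cells in injured tissue and recruit monocytes and neutrophils, whereas homeostatic members such as Cxcl12, Cxcl13 and Ccl19 position cells in lymphoid organs and tissues. Dendritic cells that have matured carry Ccr7, the receptor that guides them to lymph nodes, and are known producers of Ccl22 and Ccl17, which attract T cells through Ccr4.

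The cells came from Kaede mice aged 6 to 10 weeks, whose leukocytes carry a protein that turns from green to red under violet light. Mice of the inflamed groups received OT-II Th1 cells, were immunised with ovalbumin in complete Freund's adjuvant and were challenged 10 days later with 100 µg of heat-aggregated ovalbumin (HAO) in the footpad (joint) or the ear pinna (skin). The tissue was photoconverted on day 3, and viable CD45+ Kaede red cells were sorted 24 h later from the tissue (nonmigrated cells, which were there at conversion and stayed) or from the draining lymph node (migrated cells, which had left the tissue). The other 2 groups were CD45+ cells of the joint-draining and skin-draining nodes at steady state, for which the labels give neither immunisation nor doses. Their source labels call them cells that had migrated to the node and the protocol names a sort of red cells, but the titles name the joint libraries as PBS with the letters KG and the skin libraries as naive, so the colour of the cells sorted is uncertain. Each of the 6 groups had 3 libraries, each from pooled mice, so p-values measure the spread between pools.

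Library totals were 19239531 to 43814403 assigned counts, and the 6 inflamed skin libraries (at most 22528895) were all smaller than the 6 inflamed joint libraries (at least 35554698). The inflamed skin libraries also had a smaller share of reads outside genes (0.0925% to 0.135%, against 0.293% to 0.562% at the joint), and their names follow a pattern of their own, so a difference in preparation or processing and the site cannot be told apart. Ptprc, which encodes CD45, was high in all 18 libraries (1155 to 2530 CPM, counts scaled to a common library size by TMM). Markers of cells other than leukocytes were counted in the nonmigrated libraries. The 6 fibroblast markers summed to 129 to 362 CPM in joint nonmigrated and 60.0 to 255 CPM in skin nonmigrated libraries, against at most 2.17 CPM in all others, and 6 keratinocyte markers summed to 24.1 to 287 CPM in skin nonmigrated libraries and at most 2.29 CPM elsewhere. The 6 blood and lymph endothelial markers summed to 45.36 to 93.37 CPM in joint and 26.18 to 62.31 CPM in skin nonmigrated libraries. Their sums were 10.24 to 13.55 CPM in migrated and 1.863 to 3.386 CPM in steady-state libraries. Skin nonmigrated replicate 3 stood apart from replicates 1 and 2 (Pearson's r across genes of 0.97 and 0.957 on log2(CPM + 1), against 0.99 between those replicates, genes not being independent), with 6796 CPM of 8 macrophage markers against 2748 and 1488, and values without it are given below. In bulk RNA, fewer cells of a type and less RNA per cell cannot be told apart.

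The chemokine ligands were most abundant in the inflamed tissue. Their summed level was 4706 ± 528 CPM (SD, n = 3) in joint nonmigrated and 8799 ± 1826 CPM in skin nonmigrated cells, 2029 ± 537 and 2410 ± 373 CPM in joint and skin migrated cells, and 172 ± 11.3 and 91.6 ± 14.7 CPM in the joint and skin steady-state nodes. The members behind these sums differed. Ccl6, Cxcl2 and Ccl9 made up 66.9% of the sum in joint nonmigrated cells, and Cxcl2, Ccl3 and Cxcl3 made up 57.4% in skin nonmigrated cells. In migrated cells 3 genes, Ccl5, Ccl22 and Cxcl16, made up 92.7% at the joint and 92.9% at the skin. At steady state Ccl5 alone made up 42.1% in the joint node and 62.1% in the skin node. Per exon length (RPKM, the CPM per kilobase of exon), the highest level was that of Ccl6 in joint nonmigrated cells (638 ± 79.2, with Cxcl2 at 518 ± 210.1 within its spread), of Ccl3 in skin nonmigrated cells (1995 ± 1094, with Cxcl2 at 1289 ± 510.3 within its spread) and of Ccl5 in the other 4 groups (854 ± 121 in joint migrated, 768 ± 97.9 in skin migrated, 75.4 ± 12.9 and 59.2 ± 10.3 at steady state). Ccl22 came next in both migrated groups, at 273 ± 138 RPKM at the joint and 375 ± 83.2 RPKM at the skin.

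**Figure D1:**
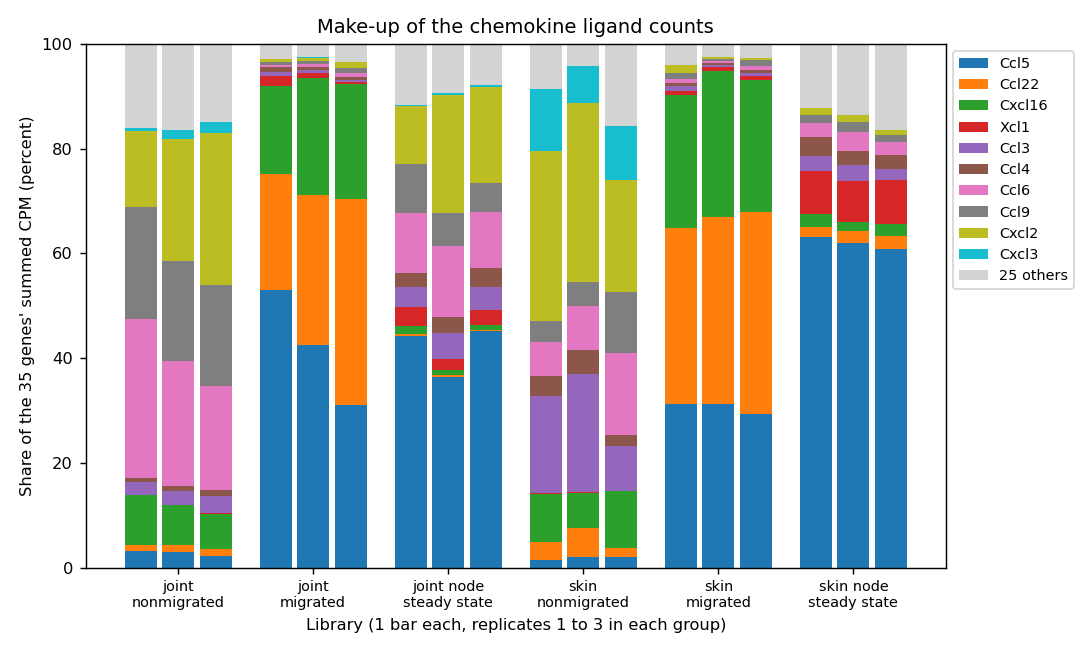
Share of the summed CPM of the 35 chemokine ligand genes taken by each of 10 genes and by the other 25 together (vertical axis, percent) in each of 18 libraries (1 bar each, 3 per group). Ccl5, Ccl22 and Cxcl16 fill 92.7% and 92.9% of the mean sum in joint and skin migrated cells, whereas the nonmigrated bars hold mainly Ccl6, Ccl9, Cxcl2, Ccl3 and Cxcl3.

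**Figure D2:**
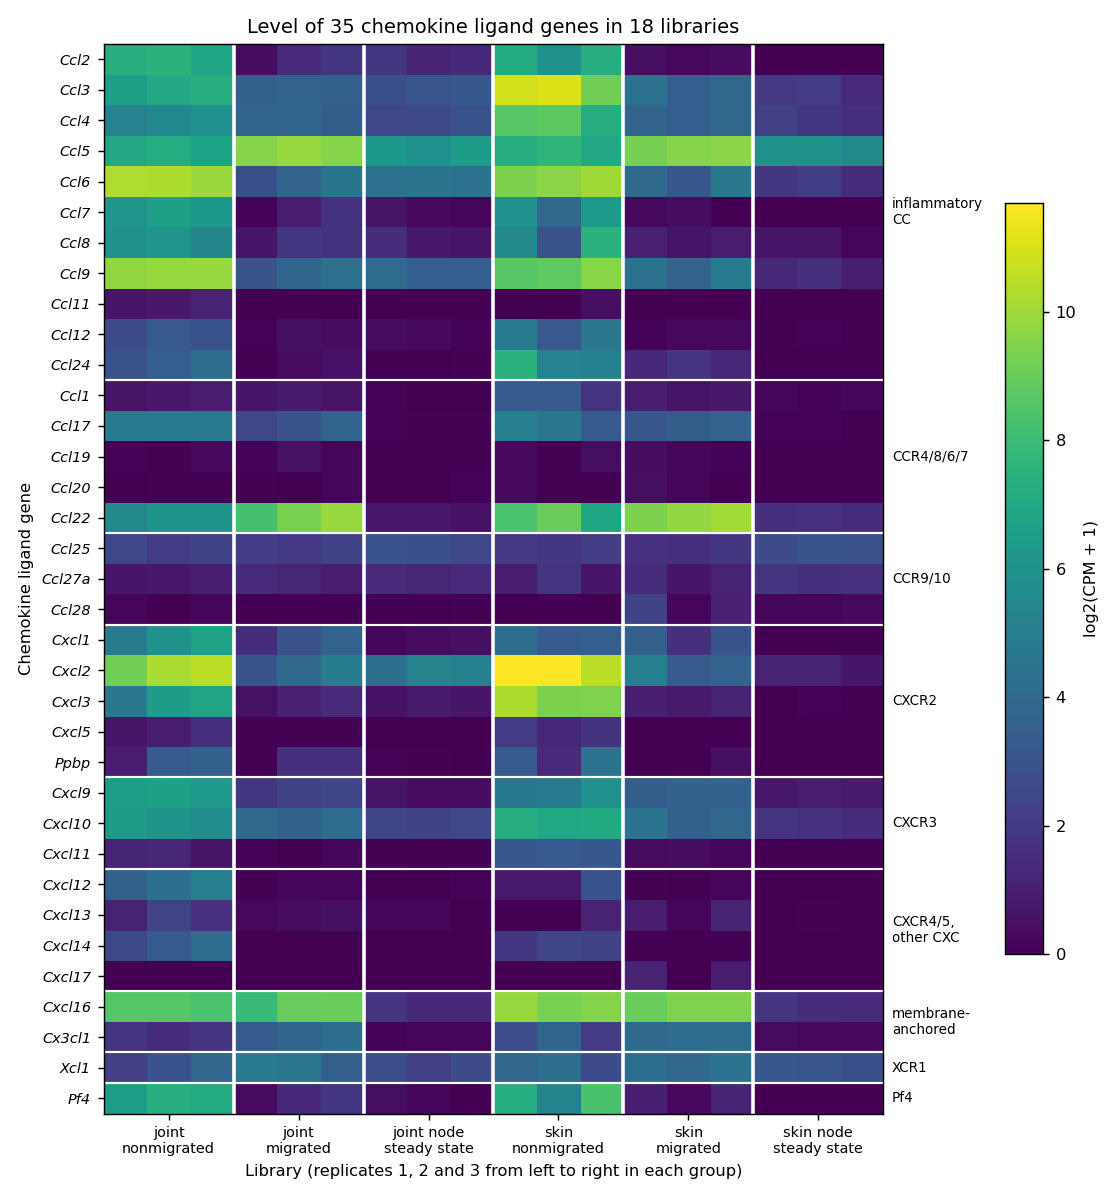
Level of each of the 35 chemokine ligand genes (rows, grouped by the receptor they bind or by kind) in each of 18 libraries (columns), as log2(CPM + 1) in colour. Most rows are brightest in the nonmigrated columns, Ccl5 and Ccl22 are brightest in the migrated columns, and 16 genes were at or under the floor of 3 counts in all 3 skin steady-state libraries.

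The first comparison was that of the cells that had left the inflamed tissue with those that had stayed. Of 31 chemokine ligands with enough counts to be tested, 22 were lower and 4 were higher in migrated than in nonmigrated cells at the joint, where 18.4% of all 16777 genes tested were called lower and 16% higher. At the skin 21 of the 31 were lower and 3 were higher, where 19.7% of all genes tested were lower and 15.7% higher. The median log2 fold change of the 31 members was -3.52 at the joint and -5.16 at the skin (-4.74 with members at the floor set to their bound or counting ratio), while the median of all genes tested was 0.02 and 0.01. Calls required an adjusted p under 0.05 in edgeR's quasi-likelihood test and an absolute log2 fold change over 1. The sites share no libraries in this comparison: 19 members were lower at both (of the 22 and 21 at each), 3 were higher at both, and none was called in opposite directions. The share of all genes called at both sites is not given here, so these counts are not read as particular to the ligands. The 4 members not tested, Ccl19, Ccl20, Ccl28 and Cxcl17, did not pass the filter on low counts, and their highest level in any inflamed library was 3.82 CPM (Ccl28).

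**Figure D3:**
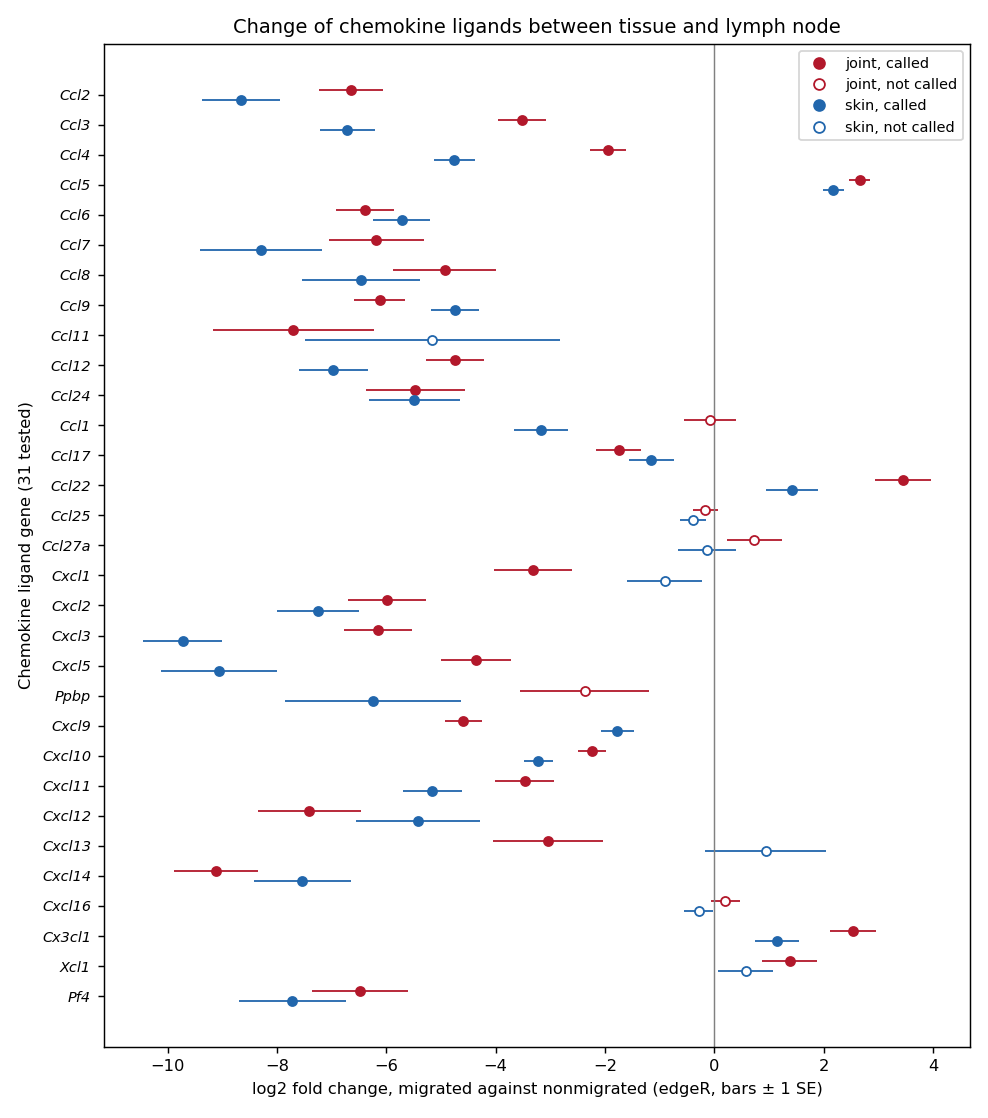
Log2 fold change of 31 chemokine ligand genes in migrated against nonmigrated cells (horizontal axis, points with bars of ± 1 SE) at the joint (red) and the skin (blue), filled where called. Most points lie left of 0, and Ccl5, Ccl22 and Cx3cl1 lie right of 0 at both sites. Fitted values of Ccl11, Cxcl5 and Cxcl14 at the joint, and of Ccl11, Cxcl5, Cxcl12 and Cxcl14 at the skin, rest on migrated libraries of 3 counts or fewer and are no bounds.

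Ccl5, Ccl22 and Cx3cl1 were the members that were higher in migrated cells at both sites. Ccl5, a ligand of Ccr1 made by T cells, natural killer cells and dendritic cells, read 132, 149.5 and 108 CPM in joint nonmigrated libraries (replicates 1, 2 and 3 in order, here and below) and 753, 954 and 752 CPM in joint migrated libraries. In skin it read 156, 199 and 133 CPM in nonmigrated and 631, 769.6 and 810.1 CPM in migrated libraries. The groups did not overlap at either site, and the log2 fold changes were 2.66 ± 0.19, adjusted p = 9.92e-07 at the joint and 2.17 ± 0.19, adjusted p = 3.09e-06 at the skin (± SE, edgeR, n = 3 against 3 pools in each test). Ccl22, a ligand of Ccr4, read 45, 65.4 and 64.5 CPM in joint nonmigrated and 313, 641 and 953 CPM in joint migrated libraries, a log2 fold change of 3.45 ± 0.51, adjusted p = 0.00016. In skin it was high on both sides, with 336, 512 and 122 CPM in nonmigrated and 677, 877 and 1063 CPM in migrated libraries, a log2 fold change of 1.43 ± 0.47, adjusted p = 0.0228. Cx3cl1, a membrane-anchored ligand of Cx3cr1, read 2.49, 1.86 and 2.44 CPM in joint nonmigrated and 9.2, 13.2 and 17 CPM in joint migrated libraries, a log2 fold change of 2.54 ± 0.42, adjusted p = 0.000363. In skin it read 6, 12.8 and 3.07 CPM in nonmigrated and 15.3, 16.1 and 17.2 CPM in migrated libraries, with 1.15 ± 0.40, adjusted p = 0.0295, and neither gene overlapped between the groups. Skin nonmigrated replicate 3 held the lowest value of both among the inflamed skin libraries. The skin call of Ccl22 was lost without skin nonmigrated replicate 1 (adjusted p = 0.0544) or skin migrated replicate 3 (adjusted p = 0.0713), and that of Cx3cl1 without skin nonmigrated replicate 1 or 3 or any skin migrated library (adjusted p 0.0515 to 0.0927), and in a fit of the skin libraries alone (adjusted p = 0.0731).

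Markers of dendritic cells and lymphocytes also rose. The 6 mature dendritic cell markers (Fscn1, Il4i1, Cacnb3, Relb, Cd40 and Ccr7) summed to 192 to 222 CPM in joint nonmigrated, 2700 to 6751 CPM in joint migrated, 422 to 1430 CPM in skin nonmigrated and 5268 to 7317 CPM in skin migrated libraries, and all 5 tested were called higher in migrated cells at both sites. T cell markers rose from 168 to 335 CPM to 1342 to 1789 CPM at the joint (6 of 6 called) and from 292 to 805 CPM to 1451 to 1526 CPM at the skin (4 of 6 called). Of 6 natural killer cell markers 5 were called higher at the joint and 0 at the skin. The part of these markers in the rise of Ccl5, Ccl22 and Cx3cl1 was not tested.

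Ccl17 and Ccl22 bind the same receptor, and their genes lie on chromosome 8 with Cx3cl1 between them (GRCm38, Ccl22 from 94745590, Cx3cl1 from 94772009 and Ccl17 from 94810453, all on the plus strand). Ccl17 fell where its neighbours rose. It read 27.5, 27 and 27.1 CPM in joint nonmigrated and 4.58, 6.91 and 12.7 CPM in joint migrated libraries (-1.75 ± 0.42, adjusted p = 0.00376). In skin it read 32.6, 23 and 9.67 CPM in nonmigrated and 7.96, 9.84 and 11.6 CPM in migrated libraries (-1.15 ± 0.42, adjusted p = 0.0331), where the groups overlapped. The call at the skin was lost without skin nonmigrated replicate 1 or 2 or skin migrated replicate 1 or 2 (adjusted p 0.0689 to 0.167). The ratio of Ccl22 to Ccl17 CPM within a library was 1.64 to 2.42 in joint nonmigrated, 10.3 to 22.3 in skin nonmigrated, 68.4 to 92.7 in joint migrated and 85.04 to 91.6 in skin migrated libraries, so the migrated libraries of both sites lay above all nonmigrated ones. Ccr4, the receptor of both, was also higher in migrated cells, at 60.5, 43 and 66.2 CPM against 3.17, 3.62 and 7.06 CPM at the joint (3.62 ± 0.41, adjusted p = 1.96e-05) and 60.9, 43.7 and 42.9 against 13.1, 11.4 and 4.62 CPM at the skin (2.34 ± 0.39, adjusted p = 0.000338).

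**Figure D4:**
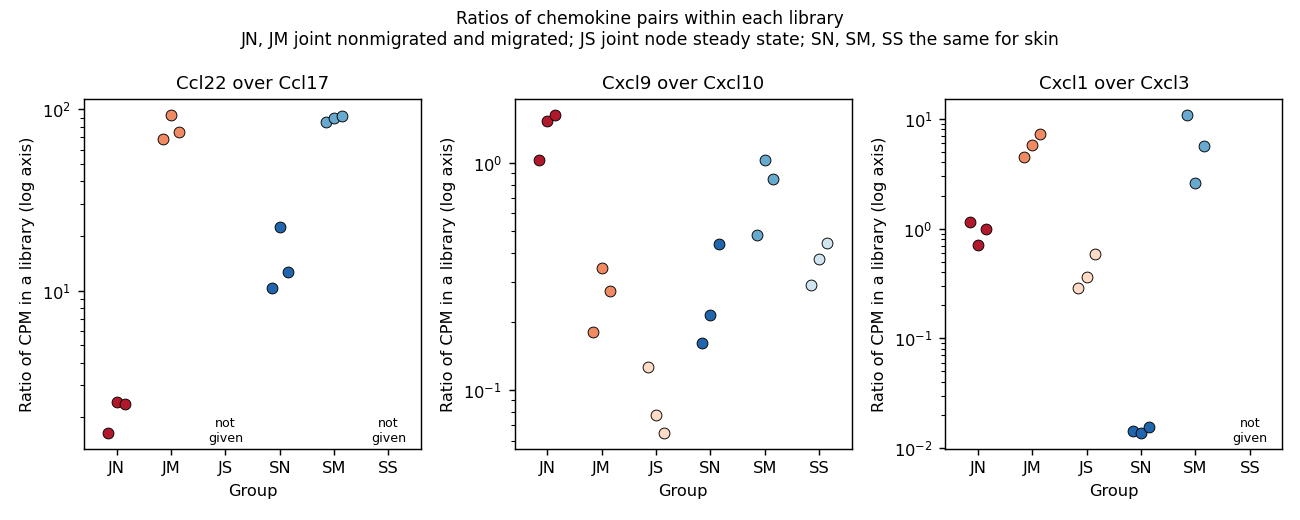
Ratio of the CPM of Ccl22 to Ccl17, Cxcl9 to Cxcl10 and Cxcl1 to Cxcl3 within each library (vertical axes, logarithmic), by group, with 1 point per library. Ccl22 over Ccl17 is 68.4 to 92.7 in the migrated libraries and at most 22.3 in the nonmigrated ones, and Cxcl1 over Cxcl3 is 0.0137 to 0.0155 in the skin nonmigrated libraries. Groups with a library at the floor of 3 counts for either gene have no points.

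Xcl1 was called higher at the joint, and Cxcl16 did not pass the test at either site. Xcl1, made by natural killer cells and activated T cells and sensed by Xcr1 on dendritic cells, read 3.61, 6.74 and 13.5 CPM in joint nonmigrated and 27.2, 24.3 and 10.5 CPM in joint migrated libraries, and these groups overlapped. Its log2 fold change was 1.38 ± 0.50, adjusted p = 0.0358, and the call was lost without joint nonmigrated replicate 1 or 2 or joint migrated replicate 1 or 2 (adjusted p 0.0955 to 0.12). In skin it read 13.3, 17.2 and 5.61 CPM in nonmigrated and 17.5, 15.3 and 21.1 CPM in migrated libraries (0.58 ± 0.50, adjusted p = 0.349). Cxcl16, a membrane-anchored ligand of Cxcr6, was among the most abundant members on both sides, with 389, 385 and 337 CPM in joint nonmigrated and 239, 500.1 and 534 CPM in joint migrated libraries, and was not called (0.20 ± 0.26, adjusted p = 0.549). In skin it read 946, 637 and 726 CPM in nonmigrated and 511, 685 and 696 CPM in migrated libraries (-0.29 ± 0.26, adjusted p = 0.365). Exons of Xcl1 and Cxcl16 overlap those of Gm20743 and Zmynd15 on the opposite strand. Whether the libraries kept strand is not given in the sources used here, so the levels of Xcl1 and Cxcl16 are uncertain.

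Of the 11 inflammatory CC ligands, 10 were lower in migrated cells at the joint and 9 at the skin, Ccl5 being the exception at both and Ccl11 not called at the skin. The monocyte attractants Ccl2, Ccl7 and Ccl12, which bind Ccr2, fell at both sites, as did Ccl8. Ccl2 read 159, 181 and 119.8 CPM in joint nonmigrated and 0.328, 1.66 and 2.59 CPM in joint migrated libraries (-6.65 ± 0.59, adjusted p = 3.88e-06), and 145, 63.8 and 154 against 0.372, 0.2 and 0.31 CPM in skin (-8.65 ± 0.72, adjusted p = 2.38e-06). Ccl7 read 68, 95.6 and 75.2 against 0.0821, 0.887 and 2.31 CPM at the joint (-6.18 ± 0.87, adjusted p = 0.000104) and 59.9, 14 and 76.8 against 0.186, 0.3 and 0 CPM at the skin (-8.29 ± 1.11, adjusted p = 7.61e-05). Ccl8 read 62, 68.1 and 39.2 against 0.595, 2.66 and 2.29 CPM at the joint (-4.93 ± 0.95, adjusted p = 0.000965) and 44.5, 6.9 and 177 against 1.07, 0.599 and 0.886 CPM at the skin (-6.47 ± 1.07, adjusted p = 0.000351). Ccl12 read 5.53, 8.67 and 6.79 against 0.0821, 0.397 and 0.3 CPM at the joint (-4.75 ± 0.54, adjusted p = 2.06e-05) and 27.9, 8.77 and 23.6 against 0.0931, 0.2 and 0.177 CPM at the skin (-6.97 ± 0.63, adjusted p = 4.22e-06). No nonmigrated library overlapped a migrated one for any of these 4 genes, although skin nonmigrated replicate 2 was the lowest nonmigrated library at the skin for all of them. That library also had the lowest macrophage marker sum of the 3 (1488 CPM, against 2748 and 6796). Its endothelial marker sum was the lowest as well (26.18 CPM, against 34.48 and 62.31). At the joint the macrophage sums (8179, 9305 and 6160 CPM) and endothelial sums (93.37, 76.83 and 45.36 CPM) were lowest in replicate 3. There Ccl2 and Ccl8 were also lowest in replicate 3, whereas Ccl7 and Ccl12 were lowest in replicate 1. The part of these cells in the levels of the 4 genes was not tested.

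Ccl6 and Ccl9, ligands of Ccr1 whose genes are neighbours on chromosome 11, were the most abundant of these ligands at the joint. Ccl6 read 1245, 1208 and 982 CPM in joint nonmigrated and 6.18, 12.2 and 22.4 CPM in joint migrated libraries (-6.39 ± 0.53, adjusted p = 2.63e-06), and 666, 799 and 1048 against 15.3, 8.19 and 24.3 CPM in skin (-5.72 ± 0.52, adjusted p = 4.39e-06). Ccl9 read 873, 958 and 959 against 7.1, 13.2 and 19.7 CPM at the joint (-6.12 ± 0.47, adjusted p = 1.49e-06) and 399.8, 436 and 778 against 20.3, 11.6 and 28.4 CPM at the skin (-4.74 ± 0.44, adjusted p = 5.28e-06). Both were far apart between tissue and node in every library. Ccr1 itself fell from 342, 364 and 322 to 5.44, 6.09 and 9.58 CPM at the joint (-5.60 ± 0.22, adjusted p = 5.65e-08) and from 1091, 998 and 929.8 to 9.21, 7.94 and 9.75 CPM at the skin (-6.81 ± 0.23, adjusted p = 8.48e-09).

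Ccl3 and Ccl4, neighbouring genes of inflammatory chemokines that attract monocytes and T cells, fell by less at the joint than at the skin. Ccl3 read 96.1, 133 and 160.2 CPM in joint nonmigrated and 11, 12.1 and 10.9 CPM in joint migrated libraries (-3.52 ± 0.43, adjusted p = 4.06e-05), and 1882, 2132 and 571 against 19.3, 10.2 and 14.4 CPM in skin (-6.71 ± 0.50, adjusted p = 1.21e-06). Ccl4 read 35.3, 43.4 and 59.1 against 12.8, 12.8 and 9.94 CPM at the joint (-1.95 ± 0.33, adjusted p = 0.000428) and 399.6, 431 and 153 against 12.3, 10.4 and 13.8 CPM at the skin (-4.76 ± 0.38, adjusted p = 1.69e-06). The migrated libraries of both sites lay in a common range (9.94 to 19.3 CPM over both genes), whereas the nonmigrated libraries did not overlap between the sites. Ccl24, an eosinophil attractant that binds Ccr3, read 6.89, 10.3 and 17.4 against 0, 0.28 and 0.493 CPM at the joint (-5.47 ± 0.91, adjusted p = 0.00034) and 178, 35.4 and 34 against 1.49, 2.55 and 1.51 CPM at the skin (-5.49 ± 0.83, adjusted p = 0.000183). Ccl11, the other Ccr3 ligand, reached at most 1.26 CPM, had no count in any joint migrated library and was at least 13.4-fold lower there than in joint nonmigrated cells (against a floor of 3 counts per library).

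The 11 genes from Ccl2 to Ccl4 in the CC cluster of chromosome 11 (GRCm38, positions 82035571 to 83664683) did not move as one. Ccl5, which lies inside the cluster, rose at both sites. Ccl1, also inside it and a ligand of Ccr8, did not pass the test at the joint (-0.08 ± 0.47, adjusted p = 0.903) and fell at the skin (-3.17 ± 0.49, adjusted p = 0.000201). Ccl11 was called lower at the joint alone, which was not shown to differ from the skin. The other 8, Ccl2, Ccl3, Ccl4, Ccl6, Ccl7, Ccl8, Ccl9 and Ccl12, were lower in migrated cells at both sites.

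Of the 5 CXC ligands of Cxcr2, which attract neutrophils, 4 fell at each site. Cxcl2 read 597, 1170 and 1449 CPM in joint nonmigrated and 6.88, 13.8 and 29.9 CPM in joint migrated libraries (-5.99 ± 0.71, adjusted p = 3.01e-05), and 3310, 3240 and 1448 against 31.7, 9.34 and 11.9 CPM in skin (-7.24 ± 0.75, adjusted p = 1.19e-05). Cxcl3 read 24.6, 86.6 and 111 against 0.431, 1.1 and 1.61 CPM at the joint (-6.15 ± 0.62, adjusted p = 9.29e-06) and 1209, 666 and 688 against 0.977, 0.799 and 1.24 CPM at the skin (-9.72 ± 0.72, adjusted p = 1.14e-06). Cxcl1 followed at the joint, with 28.5, 61.7 and 109 against 1.93, 6.38 and 11.7 CPM (-3.32 ± 0.71, adjusted p = 0.0019). At the skin Cxcl1 read 17.3, 9.12 and 10.7 in nonmigrated and 10.5, 2.1 and 7.09 CPM in migrated libraries, which overlapped (-0.91 ± 0.68, adjusted p = 0.275). Cxcl5 reached at most 3.06 CPM. It was 21.9-fold lower in joint migrated than in joint nonmigrated cells (111 against 7 counts, 95% exact interval of counting error 10.3 to 55.8, and 13.6-fold without joint nonmigrated replicate 3) and, with no count in skin migrated cells, at least 16.0-fold lower there. Ppbp, also stored in platelets, read 0.848, 9.1 and 11.1 against 0.0411, 1.94 and 2.08 CPM at the joint, where the groups overlapped (-2.37 ± 1.18, adjusted p = 0.109), and 9.54, 1.75 and 21.2 against 0, 0 and 0.399 CPM at the skin (-6.25 ± 1.61, adjusted p = 0.00593).

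Neutrophil markers (S100a8, S100a9, Csf3r, Ly6g, Mmp9 and Cxcr2) summed to 5239 to 15780 CPM in joint nonmigrated, 36.9 to 96.8 CPM in joint migrated, 1527 to 2729 CPM in skin nonmigrated and 16.6 to 33.4 CPM in skin migrated libraries. Cxcr2 alone read 70.2, 119 and 200.4 CPM in joint nonmigrated and 1.44, 2.59 and 6.47 CPM in joint migrated libraries (-5.21 ± 0.59, adjusted p = 2.25e-05). In joint nonmigrated cells Cxcl1, Cxcl2, Cxcl3 and the neutrophil sum were all lowest in replicate 1 and highest in replicate 3. The fibroblast, platelet, T cell and B cell sums followed the same order there. In skin nonmigrated cells the neutrophil sums were 2058, 2729 and 1527 CPM. They were thus highest in replicate 2, whereas Cxcl1, Cxcl2 and Cxcl3 were each highest in replicate 1. Macrophage markers fell likewise, from 6160 to 9305 CPM to 39.1 to 108 CPM at the joint and from 1488 to 6796 CPM to 74.6 to 157 CPM at the skin (8 of 8 called at both). The part of either cell type in the fall of the ligands was not tested.

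The promoters of Cxcl1, Cxcl2 and Cxcl3, which lie in the CXC cluster of chromosome 5, carry the same 11 letters close to their start, and they are shown here because Cxcl1 and Cxcl3 were called in opposite directions between nonmigrated cells of the sites, which Cxcl2 was not. RefSeq promoters (GRCm38.p6, 250 bases before to 50 after the start) matched 25 of the 35 genes. Each line is a stretch of 30 bases, 5′ to 3′ on the gene's own strand (plus for all 3), with a match to the kappa B motif GGGANNNNCC, searched on both strands, in capitals. In each of them a match on the plus strand and one on the minus strand overlap, so the capitals run over 11 letters.
Cxcl1, chr5:90891164-90891193: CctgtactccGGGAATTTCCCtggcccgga
Cxcl2, chr5:90903792-90903821: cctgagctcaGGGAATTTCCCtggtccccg
Cxcl3, chr5:90786018-90786047: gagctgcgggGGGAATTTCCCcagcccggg
The capital at the first base of the Cxcl1 line is the end of another match upstream. The 11 letters GGGAATTTCCC were in 14 of 27025 promoters of all genes (0.0518%). A kappa B match was in 11 of the 25 member promoters (44%, against 22.9% of all promoters), and a match is a description of letters, not of binding.

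The 3 interferon-induced ligands of Cxcr3, a receptor of Th1 cells, were all lower in migrated cells at both sites. Cxcl9 read 90.3, 97.9 and 78.9 CPM in joint nonmigrated and 2.73, 3.92 and 4.39 CPM in joint migrated libraries (-4.59 ± 0.34, adjusted p = 1.1e-06), and 25.2, 26.6 and 60.2 against 9.87, 11.6 and 11.3 CPM in skin (-1.78 ± 0.30, adjusted p = 0.000401). Cxcl10 read 88.4, 64.3 and 49 against 15.2, 11.4 and 16.2 CPM at the joint (-2.23 ± 0.26, adjusted p = 2.26e-05) and 157, 125 and 138 against 20.6, 11.3 and 13.3 CPM at the skin (-3.22 ± 0.27, adjusted p = 2.36e-06). Cxcl11, annotated as a polymorphic pseudogene in the mouse, reached 8.999 CPM in skin nonmigrated cells and was lower in migrated cells at the joint (-3.47 ± 0.54, adjusted p = 0.000225) and the skin (-5.16 ± 0.54, adjusted p = 1.21e-05). Cxcl10 and Cxcl11 overlap exons of Art3 and Gm2673 on the opposite strand, and the levels of Cxcl10 and Cxcl11 are likewise uncertain. The receptor of the 3 ligands went the other way: Cxcr3 read 13.9, 26.1 and 23.6 CPM in joint nonmigrated and 113, 104 and 67.3 CPM in joint migrated libraries (2.16 ± 0.26, adjusted p = 3.75e-05), and 22.4, 32 and 25 against 64.7, 81.6 and 92.4 CPM in skin (1.58 ± 0.26, adjusted p = 0.00034).

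The promoters of Cxcl9 and Cxcl10, near each other on chromosome 5, are shown because these genes differed between the sites. Cxcl11 was not among the members with a match to either motif and is not shown. In Cxcl10 a match to the interferon-stimulated response element (ISRE, GAAANNGAAA, both strands) and matches to the kappa B motif lay within 250 bases of the start, and in Cxcl9 a kappa B match without an ISRE match. The lines read 5′ to 3′ on the genes' own strand (minus for both), the capitals mark the match, and that of Cxcl9 is on the strand opposite to the gene.
Cxcl10 ISRE, chr5:92349083-92349112: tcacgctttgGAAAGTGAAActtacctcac
Cxcl10 kappa B, chr5:92349029-92349058: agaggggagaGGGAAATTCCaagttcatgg
Cxcl9 kappa B, chr5:92328190-92328219: tctgagagtaGGGTTTTCCCcaggacgatc
An ISRE match was in 3 of the 25 member promoters (12%), those of Ccl19, Cxcl10 and Cxcl14, against 3.99% of all promoters. In nonmigrated cells Cxcl14 was called higher at the joint and Cxcl10 higher at the skin. The part of these letters in the levels was not tested.

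Of the homeostatic CXC ligands Cxcl12 and Cxcl14 fell at both sites. Cxcl12, the ligand of Cxcr4 made mainly by stromal cells, read 11.5, 18 and 31.8 CPM in joint nonmigrated and 0.0616, 0.14 and 0.15 CPM in joint migrated libraries (-7.40 ± 0.95, adjusted p = 5.41e-05). In skin it read 0.78, 0.818 and 6.81 CPM in nonmigrated libraries and was 47.7-fold lower in migrated ones (158 against 4 counts, counting interval 18.3 to 177). Replicate 3 held 131 of the 158 counts, and without it the fold was 12.8. Cxcl14 read 5.09, 9.07 and 16.9 CPM in joint nonmigrated and 2.7, 4.5 and 3.79 CPM in skin nonmigrated libraries. It was 706-fold lower in joint migrated cells (1021 against 2 counts, counting interval 195 to 5837) and 236-fold lower in skin migrated cells (195 against 1 count, counting interval 41.8 to 9355). The fibroblast sums were highest in the same libraries as Cxcl12, joint nonmigrated replicate 3 (362 CPM) and skin nonmigrated replicate 3 (255 CPM), and their part in these falls was not tested. Cxcl13, the B cell attractant that binds Cxcr5, reached at most 4.35 CPM. It was lower in joint migrated cells (-3.04 ± 1.01, adjusted p = 0.0227), a call lost without joint nonmigrated replicate 2 or any joint migrated library (adjusted p 0.0514 to 0.0912).

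Pf4, platelet factor 4, a chemokine of platelet granules, fell at both sites. It read 90.2, 167 and 141 CPM in joint nonmigrated and 0.287, 1.54 and 2.64 CPM in joint migrated libraries (-6.48 ± 0.88, adjusted p = 8.13e-05), and 150.1, 37.8 and 322 against 0.977, 0.2 and 1.2 CPM in skin (-7.72 ± 0.98, adjusted p = 4.9e-05). In the 3 skin nonmigrated libraries the macrophage markers summed to 2748, 1488 and 6796 CPM, in the order of Pf4, and 8 platelet markers to 42.6, 60.8 and 29.4 CPM, in the reverse order. Of the 8 platelet markers 3 (Gp9, Gp1bb and Gp5) were at or under the floor in all 3 of these libraries. The platelet sums there were nonetheless higher than in any library of the other groups. Of 5 platelet markers tested, 4 were called lower in migrated cells at each site. The endothelial marker sums of these libraries, 34.48, 26.18 and 62.31 CPM, also followed the order of Pf4. In the 3 joint nonmigrated libraries the macrophage markers summed to 8179, 9305 and 6160 CPM and the platelet markers to 12.3, 13.6 and 17.7 CPM. The endothelial markers summed to 93.37, 76.83 and 45.36 CPM, and none of these 3 sums followed the order of Pf4. The part of any of these cell types in the level of Pf4 was not tested.

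No ligand of Ccr9 or Ccr10 that could be tested passed the test. Ccl25, made by thymic and gut epithelium, read 1.95 to 4.65 CPM over the 12 inflamed libraries, and Ccl27a, a skin epithelial ligand, read 0.624 to 2.51 CPM, and neither was called at either site. Ccl25 and Ccl27a share exon bases with Elavl1 and Il11ra1 on the opposite strand, and Ccl27a and Ccl19 lie in a repeated region of chromosome 4 whose shared reads were not counted, so their levels are uncertain. Ccl28 read 3.82, 0.0999 and 1.11 CPM in skin migrated libraries and had no count in any skin nonmigrated library, and Cxcl17 read 1.21, 0 and 0.93 CPM in skin migrated libraries, and skin migrated replicate 1 held the highest value of all 18 libraries for both. Against the floor, Ccl28 was at least 9.83-fold higher in skin migrated than in skin nonmigrated cells and Cxcl17 at least 4.19-fold, and without skin migrated replicate 1 these bounds were 3.54 and 2.73. Without any 1 of the skin nonmigrated libraries, or without skin migrated replicate 2, both passed the filter on low counts and were called higher in skin migrated cells. The filter kept more genes in these fits (17800 to 17931, against 16777).

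Of 23 chemokine receptors and scavenging receptors, 9 were higher and 8 lower in migrated cells at the joint, and 6 were higher and 10 lower at the skin, beside the 16% higher and 18.4% lower of all genes tested at the joint and 15.7% and 19.7% at the skin. Ccr1, Ccr2, Cxcr2 and Cx3cr1, receptors found on myeloid cells, were lower at both sites. Ccr2 read 1075, 1037 and 836 CPM in joint nonmigrated and 258, 196 and 206 CPM in joint migrated libraries (-2.16 ± 0.25, adjusted p = 2.66e-05). Cx3cr1 fell (-3.42 ± 0.18, adjusted p = 1.47e-07 at the joint and -1.74 ± 0.17, adjusted p = 7.86e-06 at the skin) where its ligand Cx3cl1 rose. Ccr7 read 26.8, 45.2 and 48.3 CPM in joint nonmigrated and 680, 1156 and 1679 CPM in joint migrated libraries (4.87 ± 0.56, adjusted p = 2.34e-05), whereas its ligand Ccl19 was at most 0.444 CPM in any library.

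The next comparison was between the sites. In nonmigrated cells 4 of 31 members were higher at the joint than at the skin, where 5.45% of all genes tested were called higher, and 11 were lower at the joint, where 8.86% were called lower. Cxcl1, Cxcl9, Cxcl12 and Cxcl14 were higher at the joint. Ccl1, Ccl3, Ccl4, Ccl12, Ccl22, Ccl24, Cxcl3, Cxcl10, Cxcl11, Cxcl16 and Cx3cl1 were higher at the skin. This comparison uses the same nonmigrated libraries as the one above, whose values are not repeated here.

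The ligands of 1 receptor parted between the sites. Among Cxcr2 ligands Cxcl1 was higher at the joint (2.43 ± 0.69, adjusted p = 0.0226, no overlap), Cxcl3 was higher at the skin (-3.53 ± 0.52, adjusted p = 0.000839, no overlap), and Cxcl2 did not pass the test (-1.32 ± 0.58, adjusted p = 0.112). Within a library the ratio of Cxcl1 to Cxcl3 was 0.712 to 1.16 in joint nonmigrated and 0.0137 to 0.0155 in skin nonmigrated cells. Among Cxcr3 ligands Cxcl9 was higher at the joint (1.25 ± 0.29, adjusted p = 0.00915), while Cxcl10 (-1.06 ± 0.25, adjusted p = 0.00891) and Cxcl11 (-2.97 ± 0.45, adjusted p = 0.000899) were higher at the skin, and none of the 3 overlapped between the sites. The ratio of Cxcl9 to Cxcl10 was 1.02 to 1.61 in joint nonmigrated and 0.161 to 0.437 in skin nonmigrated libraries. Leaving out 1 library ended the call of Cxcl1 (joint nonmigrated replicate 3, adjusted p = 0.0789, or skin nonmigrated replicate 2, adjusted p = 0.0792) and took Cxcl10 below the fold threshold (joint nonmigrated replicate 3, -0.87, or skin nonmigrated replicate 1, -0.97). The calls of Cxcl3, Cxcl9 and Cxcl11 held with each of the 12 libraries left out in turn.

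Ccl3 (-3.56 ± 0.43, adjusted p = 0.000286), Ccl4 (-2.84 ± 0.34, adjusted p = 0.000267) and Ccl1 (-3.27 ± 0.48, adjusted p = 0.000793) were higher at the skin in all 3 libraries, and their calls also held with each library left out. Skin nonmigrated replicate 3 was the lowest skin library for each of the 3, at 571, 153 and 2.34 CPM, and was still above the highest joint library (160.2, 59.1 and 0.872 CPM). Ccl22 was likewise higher at the skin (-2.48 ± 0.49, adjusted p = 0.00408), with no overlap. The calls that follow were each lost when some single library was left out. Ccl24 (-2.84 ± 0.71, adjusted p = 0.0127) lost its call without joint nonmigrated replicate 1 or 2 or skin nonmigrated replicate 1 (adjusted p 0.0506 to 0.0988). It read 178, 35.4 and 34 CPM in the skin nonmigrated libraries, with replicate 1 far above the others. Ccl12 (-1.52 ± 0.43, adjusted p = 0.0229) lost it without joint nonmigrated replicate 1 or 3 or skin nonmigrated replicate 1 (adjusted p 0.0618 to 0.107). Cx3cl1 (-1.69 ± 0.42, adjusted p = 0.0129) lost it without joint nonmigrated replicate 2 or skin nonmigrated replicate 2 (adjusted p 0.0527 and 0.0539). Cxcl16 (-1.06 ± 0.27, adjusted p = 0.0131) lost it without joint nonmigrated replicate 3 or skin nonmigrated replicate 1 (log2 fold changes -0.99 and -0.88).

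Cxcl12 (2.85 ± 0.73, adjusted p = 0.0143) lost its call without skin nonmigrated replicate 1 (adjusted p = 0.0512), and Cxcl14 (1.49 ± 0.47, adjusted p = 0.0357) without joint nonmigrated replicate 2 or 3 or skin nonmigrated replicate 1 or 2 (adjusted p 0.0621 to 0.164). In a fit of the nonmigrated libraries alone Cxcl12, Cxcl14 and Cx3cl1 also lost theirs (adjusted p = 0.0589, 0.0631 and 0.062). Without skin nonmigrated replicate 1 the count of members called fell from 15 to 9, and that of all genes from 2400 of 16777 to 1745 of 17813. Without skin nonmigrated replicate 3, the library that stood apart, 18 members were called, with Ccl9, Ccl11 and Cxcl13 added to those higher at the joint, and the count over all genes rose to 3720 of 17931. Neutrophil markers (4 of 6 called) and B cell markers (4 of 4 called) were higher at the joint. T cell markers (5 of 6 called), mature dendritic cell markers (3 of 5 tested), keratinocyte markers (4 of 4 tested) and natural killer cell markers (2 of 6 called) were higher at the skin. Of 5 platelet markers tested 1 was higher and 2 were lower at the joint, and of 6 endothelial markers 1 was higher and 1 lower. The part of these cell types in the differences of the ligands was not tested.

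**Figure D5:**
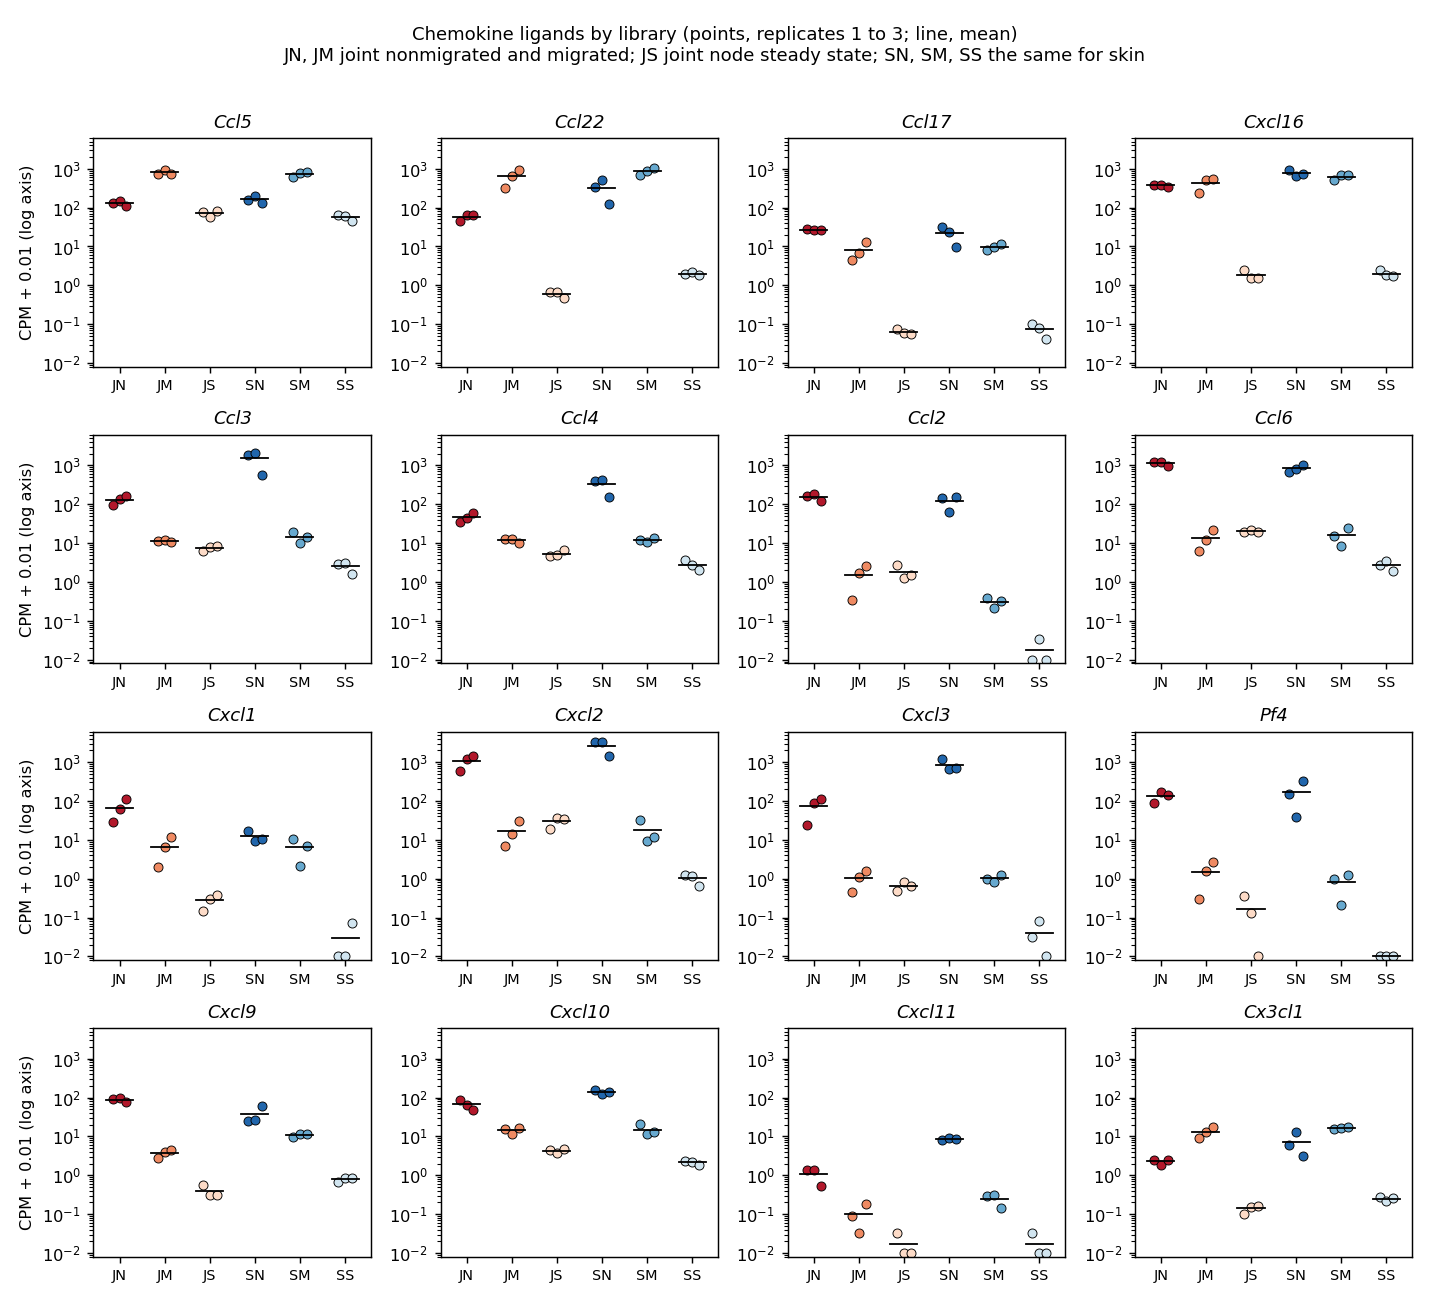
CPM + 0.01 of 16 chemokine ligand genes (logarithmic vertical axis) in each of 18 libraries, with a line at each group's mean. Ccl3, Ccl4, Cxcl3 and Cxcl11 are higher in skin nonmigrated than in joint nonmigrated libraries, Cxcl1 and Cxcl9 are lower, and Ccl22, Ccl17, Cxcl16 and Cx3cl1 are lowest in both steady-state nodes.

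The migrated cells of the sites were compared next. Of 31 members 1, Cxcl9, was called between joint and skin migrated cells, and none was higher at the joint, where 0.578% of all genes tested were lower and 0.56% higher. The count over all genes, 191, fell to between 58 and 63 without any 1 of joint migrated replicates 1, 2 and 3 and skin migrated replicates 1 and 3, and rose to 328 without skin nonmigrated replicate 3. Cxcl9 was 2.73, 3.92 and 4.39 CPM in joint migrated and 9.87, 11.6 and 11.3 CPM in skin migrated libraries (-1.56 ± 0.31, adjusted p = 0.0285), with no overlap. The call was lost without any 1 of these 6 libraries (adjusted p 0.0733 to 0.109). Ccl5 (0.16 ± 0.18, adjusted p = 0.713), Ccl22 (-0.45 ± 0.47, adjusted p = 0.676) and Cxcl16 (-0.57 ± 0.26, adjusted p = 0.31), the most abundant members, did not pass the test, and their differences had 1 SE of 0.18 to 0.47 on the log2 scale. In nonmigrated cells Cxcl9 had been higher at the joint. Ccl28 and Cxcl17, which were not tested, had 4 and 0 counts in joint migrated cells, against which they were 58.8-fold (109 counts, counting interval 22.3 to 219.5) and at least 10.9-fold higher in skin migrated cells. Skin migrated replicate 1 held 82 of the 109 counts of Ccl28, and without it the values were 21.9-fold and at least 7.12-fold, while without replicate 2 that of Cxcl17 was at least 16.4-fold. Without skin nonmigrated replicate 3 Ccl28 was tested and called as well, and without skin migrated replicate 2 the call of Cxcl9 was lost and Ccl28 and Cxcl17 were called.

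The change on migration differed between the sites for 5 of 31 members (test of the difference, joint minus skin, in the same fit). Of these, 4 had the higher log2 fold change at the joint, where 3.96% of all genes tested were called in that direction, and 1, Cxcl9, had the lower one, where 2.17% were. The difference of the log2 fold changes was 3.10 ± 0.67, adjusted p = 0.0187 for Ccl1, 3.19 ± 0.58, adjusted p = 0.00822 for Ccl3, 2.81 ± 0.47, adjusted p = 0.00562 for Ccl4, 3.57 ± 0.82, adjusted p = 0.0238 for Cxcl3 and -2.81 ± 0.42, adjusted p = 0.0041 for Cxcl9. Without joint migrated replicate 2 the count fell to 3 (Ccl1, adjusted p = 0.0509, and Cxcl3, adjusted p = 0.0575, were lost), and likewise without skin nonmigrated replicate 1 (adjusted p = 0.0527 and 0.0598). Cxcl3 also lost its call without joint migrated replicate 3, skin migrated replicate 1 or skin migrated replicate 2 (adjusted p = 0.0626, 0.0577 and 0.059). Without skin nonmigrated replicate 3 the count rose to 10, with Ccl22 and Cx3cl1 added to those with the larger value at the joint and Ccl9, Ccl28 and Cxcl13 to those with the smaller. The count over all genes rose in the same fit from 1029 of 16777 to 2610 of 17931, and it fell to 614 without joint migrated replicate 2 and to 582 without skin nonmigrated replicate 1.

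The last comparisons set the migrated cells against CD45+ cells of the same nodes at steady state, whose sorted colour is uncertain, in a fit of the 12 lymph node libraries that tested 27 of the 35 members. They share the migrated libraries with the comparisons above. At the joint 14 of the 27 were higher and 0 lower in migrated cells of inflamed mice, where 16.9% of all 17107 genes tested were higher and 7.31% lower. At the skin 21 were higher and 1 lower, where 21.5% were higher and 15% lower. The share of reads outside genes was 0.114% to 0.135% in skin migrated and 0.227% to 0.441% in skin steady-state libraries. Their names also differ in pattern. At the joint these shares overlapped (0.295% to 0.562% and 0.238% to 0.424%). In the skin comparison a difference in preparation or processing therefore cannot be told apart from the change. The 2 comparisons share no libraries, and 13 members were higher at both (of 14 and 21). The share of all genes higher at both is not given here, so this count is not read as particular to the ligands. The median log2 fold change was 1.76 at the joint and 3.84 at the skin (3.38 with members at the floor set to their bound or counting ratio).

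Ccl22, Ccl17, Cxcl16 and Cx3cl1 were higher in migrated than in steady-state cells at both sites. Ccl22 read 0.667, 0.662 and 0.466 CPM in the joint and 1.95, 2.2 and 1.8 CPM in the skin steady-state libraries, against 313 to 1063 CPM in the migrated libraries, and its log2 fold changes were 10.08 ± 0.45, adjusted p = 4.7e-09 and 8.80 ± 0.41, adjusted p = 1.96e-09. Ccl17 was at the floor in the joint node at steady state (7 counts in 3 libraries) and 150-fold higher in joint migrated cells (counting interval 72.7 to 375), and in skin it rose from 0.0897, 0.0694 and 0.0305 CPM (7.18 ± 0.47, adjusted p = 3.12e-08). Cxcl16 read 2.54, 1.52 and 1.55 CPM in the joint and 2.44, 1.83 and 1.71 CPM in the skin steady-state libraries, with 7.85 ± 0.35, adjusted p = 4.7e-09 and 8.32 ± 0.36, adjusted p = 1.29e-09. Cx3cl1 read 0.089, 0.147 and 0.155 and 0.269, 0.208 and 0.244 CPM, with 6.65 ± 0.29, adjusted p = 4.7e-09 and 6.09 ± 0.27, adjusted p = 1.5e-09. For these 4 genes every migrated library was above every steady-state library. Ccl5 was already present at steady state, with 74.9, 58.9 and 83.3 CPM in the joint and 63.2, 61.9 and 45.5 CPM in the skin libraries, and rose by 3.53 ± 0.18, adjusted p = 8.74e-09 and 3.73 ± 0.18, adjusted p = 2.74e-09. Xcl1 read 6.07, 3.63 and 5.37 and 8.23, 7.75 and 6.29 CPM, with 2.07 ± 0.30, adjusted p = 7.72e-05 and 1.31 ± 0.30, adjusted p = 0.00172. Mature dendritic cell markers summed to 565 to 896 CPM in the joint and 548 to 682 CPM in the skin steady-state libraries. Of 5 tested, 4 were called higher in migrated cells at the joint and 5 at the skin. Natural killer cell markers were higher at both sites (5 of 6), B cell markers were lower at both (4 of 4), and of 6 T cell markers 0 were called. The part of these cells in the changes was not tested.

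Cxcl9 read 0.556, 0.294 and 0.311 CPM in the joint and 0.673, 0.833 and 0.825 CPM in the skin steady-state libraries, with log2 fold changes of 3.27 ± 0.27, adjusted p = 4.99e-07 and 3.84 ± 0.26, adjusted p = 4.19e-08. Cxcl10 read 4.38, 3.78 and 4.79 and 2.33, 2.22 and 1.86 CPM, with 1.76 ± 0.22, adjusted p = 1.86e-05 and 2.84 ± 0.23, adjusted p = 2.21e-07. Both genes were higher in every migrated library. Cxcl1 read 0.133, 0.294 and 0.377 CPM in the joint steady-state libraries (4.65 ± 0.74, adjusted p = 0.000173) and was 402-fold higher in skin migrated than in skin steady-state cells (428 against 2 counts, counting interval 111 to 3334). Ccl4 read 4.67, 4.93 and 6.59 and 3.68, 2.71 and 1.99 CPM, with 1.17 ± 0.22, adjusted p = 0.000557 and 2.15 ± 0.23, adjusted p = 2.64e-06. Ccl1 reached 0.153 CPM at steady state and rose at both sites (3.83 ± 0.49, adjusted p = 2.43e-05 and 2.70 ± 0.45, adjusted p = 0.000147). Ccl24 had 5 counts in the joint steady-state libraries and was 6.63-fold higher in joint migrated cells (counting interval 2.59 to 21.7, 3.43-fold without joint migrated replicate 3 and 10.2-fold without replicate 1), a call lost in 11 of 12 fits that left out a library (adjusted p 0.0514 to 0.223). It had no count in the skin steady-state libraries and was at least 24.3-fold higher in skin migrated cells. Pf4 read 0.356, 0.123 and 0 CPM in the joint steady-state libraries (3.22 ± 0.96, adjusted p = 0.0152), a call lost without joint migrated replicate 3 or joint steady-state replicate 2 (adjusted p = 0.0652 and 0.0596), and in skin it was at least 10.4-fold higher in migrated cells, with no count at steady state.

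Ccl3, Ccl6, Ccl9 and Cxcl2 were called at the skin and not at the joint. Ccl3 read 6.34, 7.88 and 8.23 CPM in the joint and 2.87, 3.15 and 1.59 CPM in the skin steady-state libraries, and was called at the skin (2.55 ± 0.26, adjusted p = 1.81e-06) and not at the joint, where the fold threshold was missed (0.63 ± 0.24, adjusted p = 0.0421). Ccl6 read 19.4, 21.9 and 19.6 and 2.78, 3.45 and 1.86 CPM (-0.55 ± 0.40, adjusted p = 0.275 at the joint and 2.58 ± 0.44, adjusted p = 0.0002 at the skin). Ccl9 read 15.8, 10.3 and 10.3 and 1.48, 2.08 and 0.977 CPM (0.17 ± 0.36, adjusted p = 0.728 and 3.75 ± 0.42, adjusted p = 4.74e-06). Cxcl2 read 18.7, 36.5 and 33.8 and 1.21, 1.16 and 0.641 CPM (-0.78 ± 0.49, adjusted p = 0.201 and 4.14 ± 0.61, adjusted p = 5.32e-05). Whether these changes differ between the sites was not tested, and the limit on preparation at the skin given above holds for them. Ccl2 read 2.67, 1.28 and 1.46 CPM in the joint steady-state libraries (-0.21 ± 0.53, adjusted p = 0.765) and had 1 count in those of the skin, against which it was 35.7-fold higher in skin migrated cells (19 counts, counting interval 5.68 to 1485). Cxcl3 and Cxcl13, with 4 counts each in the skin steady-state libraries, were 30.6-fold (counting interval 11.4 to 115.5) and 23.5-fold higher (counting interval 8.63 to 89.6). Ppbp read 0.0411, 1.94 and 2.08 CPM in joint migrated and 0.089, 0.0491 and 0.0222 CPM in joint steady-state libraries, and was called higher in the migrated ones (4.60 ± 1.26, adjusted p = 0.00989) although the groups overlapped, joint migrated replicate 1 lying below 2 of the 3 steady-state libraries. Ccl7, Ccl8 and Ccl12 did not pass the test at either site, with at most 1.78 CPM at steady state. Ccl25 was the member lower in skin migrated cells, from 5.65, 7.27 and 6.5 CPM to 2.14, 1.95 and 2.61 CPM (log2 fold change -1.5, SE 0.21, adjusted p = 3.2e-05). Ccl28 was called higher in skin migrated cells (3.32 ± 0.85, adjusted p = 0.00399), a call that was lost without skin migrated replicate 1 (adjusted p = 0.0577).

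The steady-state nodes of the sites were then compared with each other. By their titles the joint libraries were PBS and the skin libraries naive, and the titles of the joint libraries alone carry the letters KG, so the site, the challenge and possibly the sorted colour cannot be told apart here. Of the 27 members 7 were higher in the joint than in the skin node and 1 was lower, where 3.23% of all genes tested were called higher and 0.655% lower. Ccl3 (1.54 ± 0.25, adjusted p = 0.0019), Ccl6 (2.89 ± 0.44, adjusted p = 0.00108), Ccl9 (2.98 ± 0.41, adjusted p = 0.00049), Cxcl2 (4.85 ± 0.61, adjusted p = 0.000241), Ccl2, Cxcl3 and Cxcl10 (1.00 ± 0.23, adjusted p = 0.0156) were higher in the joint node. Ccl2 and Cxcl3, which were at the floor in the skin node, were 219-fold higher (238 against 1 count, counting interval 39.0 to 8699) and 19.1-fold higher (83 against 4 counts, counting interval 7.19 to 71.8). Ccl22 was lower in the joint node (-1.74 ± 0.43, adjusted p = 0.0247), a call lost without any 1 of the 6 steady-state libraries (adjusted p 0.0618 to 0.115), and Cxcl10, close to the fold threshold, was lost in 7 of 12 fits that left out a library (log2 fold changes 0.91 to 1.02). The neutrophil markers summed to 416 to 802 CPM in the joint and 12.6 to 20.2 CPM in the skin steady-state libraries (6 of 6 called), and the macrophage markers to 53.8 to 98.7 and 12.9 to 18.4 CPM (4 of 8 called). B cell markers summed to 1996 to 3559 CPM in the steady-state libraries, against 123 to 776 CPM in migrated cells of inflamed mice. The part of these cells in the difference was not tested.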

How the data were processed

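RNA was sequenced from 18 pools of sorted cells on an Illumina HiSeq after TruSeq library preparation. Per the labels and the study's methods, the authors trimmed reads with Trim Galore, aligned them to mm10 with TopHat2 and counted them per gene with HTSeq in its default mode, and deposited raw counts. Versions of these tools are not given in the sources used here. The table also held 5 rows that name no gene, which were left out: reads outside genes, ambiguous reads (1.84% to 2.37%) and reads of no unique place (9.24% to 12.7%), so reads shared by near-identical genes were not counted. Totals of 19239531 to 43814403 counts put the floor of 3 counts at 0.0616 to 0.18 CPM. Ratios to a group at 3 counts or fewer per library carry exact 95% intervals, which cover counting error only. Replicates differed beyond sampling noise (chi-square per degree of freedom 14.7 to 117), so each counted as 1 sample.

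Columns were matched to samples by their titles. Counts were tested with the quasi-likelihood F test of edgeR 4.0.16 (R 4.3.3, TMM scaling, filterByExpr with a minimum count of 10), in a fit of the 12 inflamed libraries and a fit of the 12 lymph node libraries, so that groups shared an estimate of the spread. P-values were adjusted by Benjamini-Hochberg over all genes tested, and calls also required a log2 fold change of over 1 in size beside an adjusted p under 0.05. CPM used TMM factors of all 18 libraries, and RPKM the union exon length per gene. Fold changes are given as log2 ± SE, the SE being the absolute log2 fold change over the square root of F. The fit was tested on simulated data. Alternatives were DESeq2 1.42.0, its size factors, other filters, other sets of samples, a replicate block, an adjusted p under 0.001 and leaving out each library. Whether replicate numbers pair the samples is not known, and the main fits did not pair them. All 35 members are accounted for: those called in any comparison with a group mean of 10 CPM or more are given in every library, and the others by range and counts. The chemokine genes, receptors and marker lists were chosen with earlier results of these data known.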

Additional observations from a re-analysis of the deposited data

Results flagged for a closer look

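The change between nonmigrated and migrated cells differed between the joint and the skin for 5 chemokine ligands, by the test of the difference itself in the edgeR fit of the inflamed libraries. The log2 difference, joint minus skin, was 3.10 for Ccl1, 3.19 for Ccl3, 2.81 for Ccl4, 3.57 for Cxcl3 and -2.81 for Cxcl9. In all 5 the joint and skin nonmigrated libraries did not overlap. These libraries enter the test of the difference, so this is no separate result, and the share over all genes is not given here. In migrated libraries the ranges of Ccl1, Ccl3, Ccl4 and Cxcl3 overlapped between the sites, and those of Cxcl9 did not.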

How the results depend on the processing

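Of 115 called changes of chemokine ligands, 0 reversed under any alternative, and 77 kept their call in every one. DESeq2, its size factors and no filter on low counts lost 0 of 115, a filter of 10 counts in every sample of 1 group lost 1 of 112, fits of the groups compared alone lost 4 of 104, a fit of all 18 samples lost 2, and an adjusted p under 0.001 lost 38. Under that stricter threshold the count of members called fell from 15 to 5 between nonmigrated cells of the sites, from 1 to 0 between migrated cells, from 5 to 0 for the difference of the migration change and from 8 to 3 between the steady-state nodes. Between migrated cells, DESeq2 called 2, no filter 3 and all 18 samples 2. Leaving out each library gave 9 to 18 members between nonmigrated cells, 0 to 2 between migrated cells and 3 to 10 for the difference. Over all genes, those comparisons moved from 191 between migrated cells to 465 with DESeq2, 327 with no filter, 407 with all 18 samples and 0 under 0.001, and for the difference from 1029 to 1729 with DESeq2, 1664 with all 18 samples and 20 under 0.001. The stricter threshold also took the other counts over all genes from 5757 to 3586, 5940 to 3508, 2400 to 511, 4143 to 2714, 6249 to 4297 and 665 to 246. Leaving out each library gave 58 to 328 genes between migrated cells, 582 to 2610 for the difference and 1745 to 3720 between nonmigrated cells. The causes were not tested. Replicate numbers are shared between groups, but deviations of same-numbered libraries did not all correlate over 0.1 in any comparison (-0.353 to 0.254 over all). Between tissue and node they were 0.021 to 0.254 at the joint and 0.073 to 0.173 at the skin. With 3 libraries per group these values cannot show whether the number pairs the samples. With a replicate block 26, 24, 15, 1, 7, 13, 22 and 7 members were called, (joint migration, skin migration, nonmigrated between sites, migrated between sites, the difference, joint and skin against steady state, and the steady-state nodes), and 4 of the 115 calls were lost. Counts near the floor limit Ccl11, Ccl19, Ccl20, Ccl28, Cxcl5, Cxcl11 and Cxcl17.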
